A study of Rattus norvegicus with 12 samples.

Results

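The genes that encode translation initiation factors were described in epididymal white adipose tissue, a visceral fat pad, of fed rats and of rats in phase 2 and phase 3 of fasting. Members were the genes whose platform symbol begins with Eif and a digit, which takes in the eIF4E-binding proteins and the eIF2α kinases. They numbered 44 of the 14506 genes tested, on 45 of 29215 probe sets, and Eif3h alone had more than 1 probe set. For each gene the brightest probe set, by its mean over the 12 arrays, was taken. Symbols matched RefSeq by gene number for 43 members, and Eif5 was the exception. Eif4g1 and Eif1 were not analysed here.

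The 3 groups held 4 rats each, all of them male Sprague-Dawley animals: a fed group, a group fasted into phase 2 and a group fasted into phase 3. In the phases of fasting as physiologists use the terms, phase 2 is the long period in which fat supplies most energy and body protein is spared, and phase 3 is the late period in which protein breakdown accelerates. Fasting times, ages and body weights were not given in the labels. RNA of each rat was run on 1 Affymetrix Rat Gene 1.0 ST array, and levels are log2 values from RMA, so that a difference of 1 is a 2-fold change. The rats of a group are listed in the order of their numbers, which carries no other meaning. P-values rest on the spread between rats alone.

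The label of the RNA extraction step names liver, whereas the titles and the tissue, source and collection labels name adipose tissue. The mean over 8 adipocyte markers lay between 11.85 and 11.89 for each fed rat, 11.85 and 11.87 for each phase 2 rat, and 10.56 and 11.35 for each phase 3 rat, while 7 hepatocyte markers averaged between 4.58 and 5.23 on every array. Of the hepatocyte genes, Tat had group means of 3.49 (fed), 3.42 (phase 2) and 3.59 (phase 3). Alb had group means of 8.33, 9.62 and 6.73 in the same order. Arrays of the same group correlated at 0.9835 to 0.9966 over the tested genes, with the lowest values in phase 3. Several marker lists moved with fasting. The 8 adipocyte genes were all lower in phase 3 than in fed rats, with a median change of -1.06, and in phase 2 limma called 0 of 8, with 0 also at an unadjusted p below 0.05. All 6 smooth muscle genes were higher, and all 7 cell cycle genes and all 3 mesothelial genes were lower, in both fasted groups than in fed rats. Of 6 fibroblast and progenitor genes, 3 were lower in phase 2, and 5 were lower and 1 was higher in phase 3. Of 6 endothelial genes 4 were higher in phase 2 and 3 in phase 3, while the macrophage list divided, with 3 of 7 higher and 3 lower in phase 3. In bulk tissue, fewer cells of a type and less RNA per cell cannot be told apart, and the part of these shifts in the results on initiation factors was not tested.

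Initiation is the step at which a ribosome is placed on an mRNA and finds its start codon. The factor eIF2, loaded with GTP, carries the initiator tRNA to the small ribosomal subunit together with eIF1, eIF1A, eIF3 and eIF5, while the cap-binding complex eIF4F, made of the cap-binding protein eIF4E, the scaffold eIF4G and the RNA helicase eIF4A, recruits that subunit to the mRNA. Nutrient supply acts on both arms: eIF4E-binding proteins that the kinase mTORC1 leaves unphosphorylated hold eIF4E away from eIF4G, and eIF2α kinases block the recycling of eIF2 by its exchange factor eIF2B. These controls act largely by phosphorylation, which mRNA levels do not report.

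Among the initiation factors that passed the test, most were higher in phase 3, and nearly all changes were small. In phase 2 more members were lower than higher, which also held over all genes. In phase 2 against fed rats, 6 of 44 members were higher and 11 were lower at an adjusted p below 0.05 (limma, Benjamini-Hochberg over all genes tested), where 9.66% of all genes were higher and 15.5% were lower. In phase 3 against fed rats, 20 members were higher and 5 were lower, where 21.1% of all genes were higher and 24.3% were lower. Phase 3 against phase 2 gave 20 members higher and 1 lower, Eif2d, where 12.8% of all genes were higher and 15.1% were lower. Members called in either direction made up 38.6% of the 44 in phase 2 against fed, where 25.2% of all genes were called. They made up 56.8% in phase 3 against fed, where 45.4% of all genes were called, and 47.7% in phase 3 against phase 2, where 27.9% were. Eif4b, at 2.18-fold in phase 3 over fed rats, was the single called member to pass 2-fold in any comparison. The comparisons share groups: both fasted groups were set against the same fed rats, and phase 3 was also set against phase 2.

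The members were brighter than most genes, and brighter genes were called more often. Member means over the 12 arrays ran from 6.67 for Eif3i to 11.86 for Eif4a2, with a median of 9.37, where the median over all genes was 6.92. The brighter 60% of genes, which include all 44 members, were therefore refitted alone. In phase 2 against fed rats 15.9% of members were higher and 25.0% were lower, against 15.6% and 24.9% of the genes in that set. In phase 3 against fed rats 45.5% of members were higher and 13.6% were lower, against 28.4% and 36.6% of the genes. Phase 3 against phase 2 gave 54.5% of members higher and 2.27% lower, against 21.1% and 25.2% of the genes. In either direction 40.9%, 59.1% and 56.8% of members were called in these 3 comparisons, against 40.5%, 65.0% and 46.3% of the genes. The phase 2 shares of the members were thus close to those of this set, while in both comparisons of phase 3 the members divided toward higher values. The set is not matched to the members in brightness: it reaches down to a mean level of 6.14 and its median is 8.15.

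Groups whose rats did not overlap were also counted. All 4 rats of phase 2 lay apart from all 4 fed rats for 22 of 44 members, against 31.0% of all genes. Phase 3 and fed rats were apart for 24 members, against 41.9% of all genes, and phase 3 and phase 2 rats for 20 members, against 26.3%. Non-overlap was not counted within the brighter 60% of genes, so the part of brightness in these counts was not tested. The median change of the members was -0.077 in phase 2 against fed, 0.096 in phase 3 against fed and 0.23 in phase 3 against phase 2, where the median change over all genes was 0.0072, 0.053 and 0.033.

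The scale of the arrays bears on these counts. The median level over the tested genes was lower by 0.155 in phase 3 than in fed arrays, lower by 0.065 in phase 2 than in fed arrays and lower by 0.0901 in phase 3 than in phase 2 arrays. Relative to these shifts, the members' median change was -0.012 in phase 2 against fed, 0.25 in phase 3 against fed and 0.32 in phase 3 against phase 2, where the median over all genes was 0.072, 0.21 and 0.12 on the same scale. With each array centred on that median, 8 members were higher and 9 lower in phase 2 than in fed rats, 25 were higher and 3 lower in phase 3 than in fed rats, and 31 were higher and 0 lower in phase 3 than in phase 2 (32 and 0 at an unadjusted p below 0.05). Quantile normalization over all probe sets gave 8 higher and 9 lower in phase 2, 21 and 4 in phase 3 against fed, and 23 and 0 in phase 3 against phase 2 (27 and 3 at an unadjusted p below 0.05). Cyclic loess gave 6 and 11, 20 and 5, and 23 and 1 in the same order. Centring adds the same amount to the change of every gene, which favours higher calls, and the counts over all genes moved likewise: 42.2% of genes were then higher and 18.4% lower in phase 3 than in fed rats, and 21.5% higher and 11.6% lower in phase 3 than in phase 2. With quantile normalization 21.9% of genes were higher and 23.1% lower in phase 3 than in fed rats, and 14.1% higher and 14.8% lower in phase 3 than in phase 2. With cyclic loess the shares were 19.5% and 25.6%, and 13.1% and 16.0%. The excess of lower members in phase 2 came down to 9 against 8 with quantile normalization and with centred arrays. The balance over all genes moved likewise, from 9.66% higher and 15.5% lower in phase 2 than in fed rats. It became 11.4% and 14.2% with quantile normalization, and 14% and 12.4% with centred arrays. Cyclic loess, which left the member counts at 6 and 11, gave 10.2% and 16.3%.

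**Figure D1:**
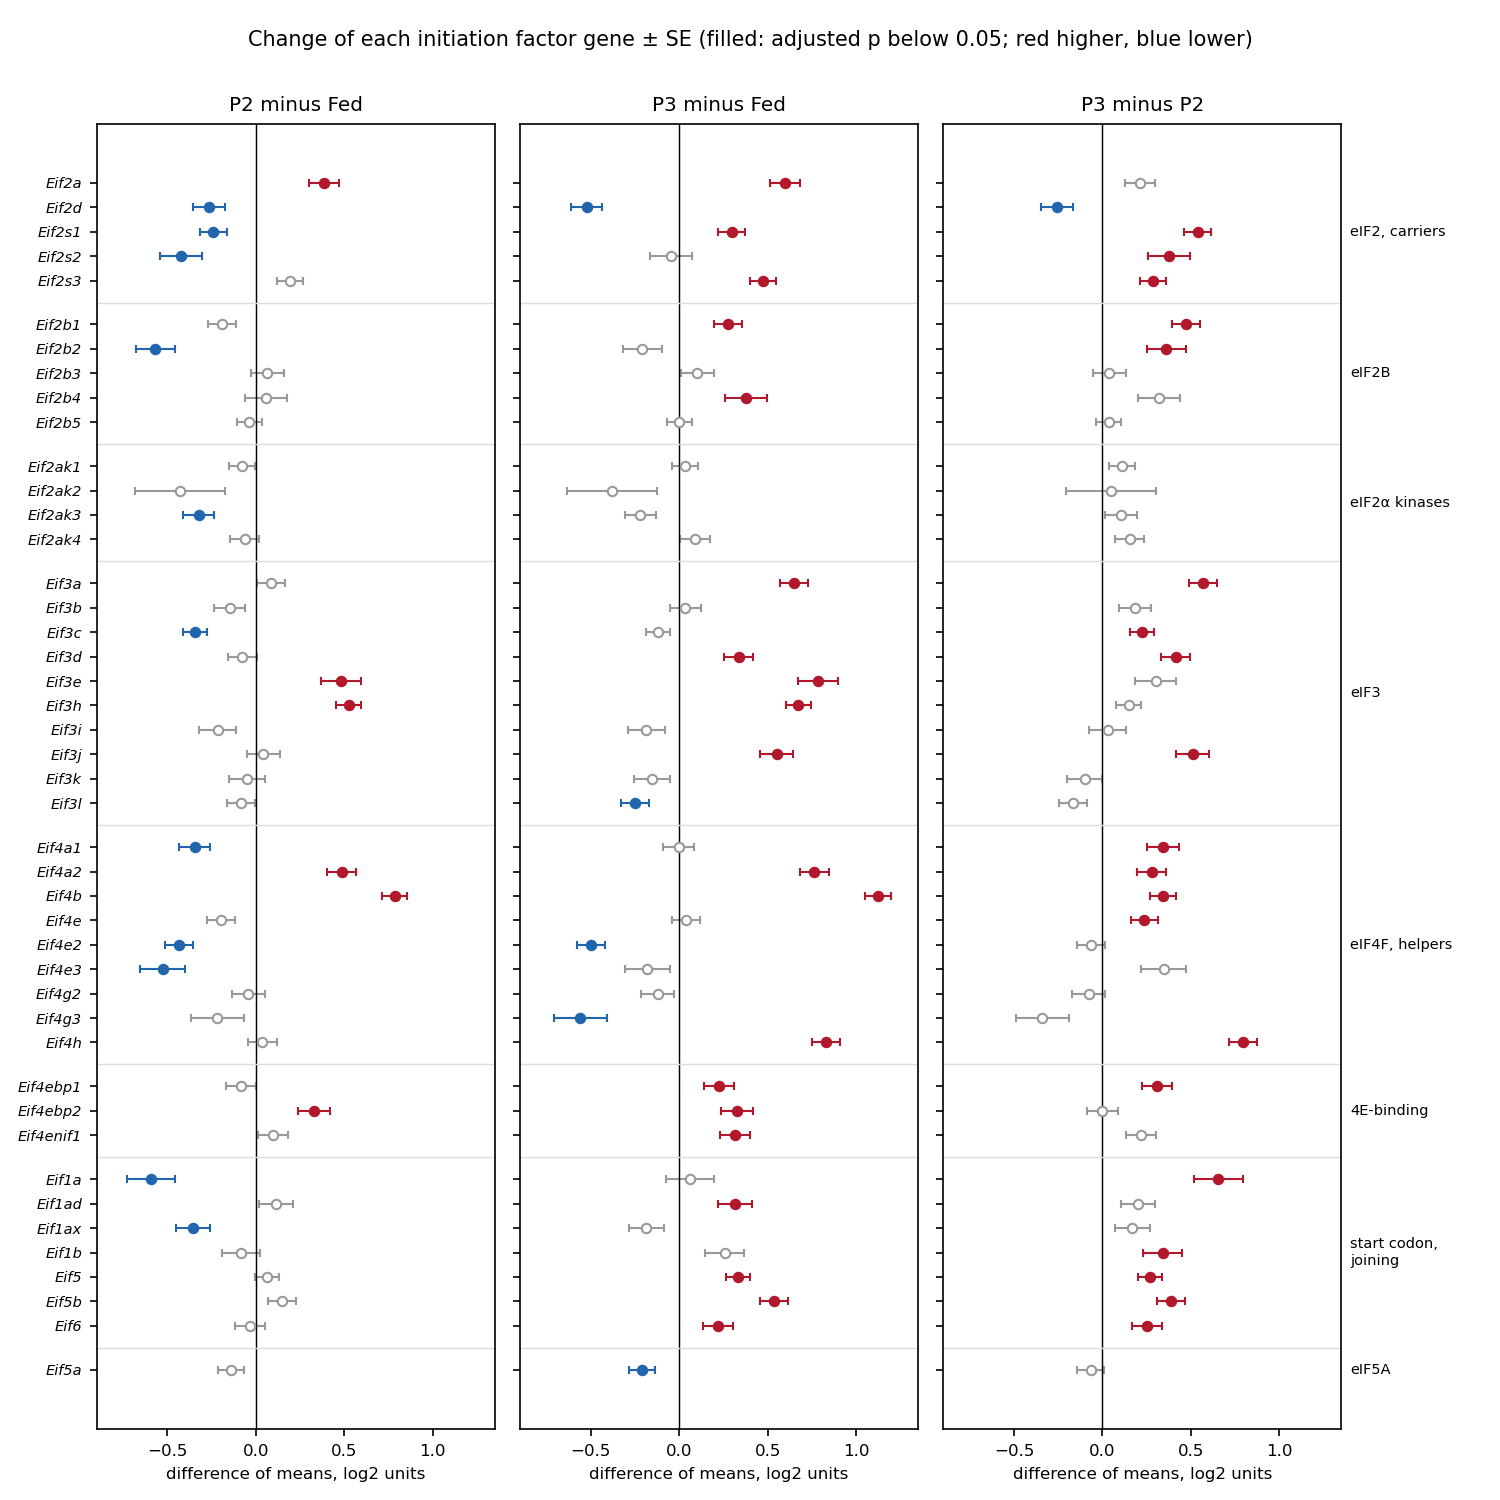
Each of the 44 initiation factor genes (rows, grouped by role) is plotted as a difference of group means in log2 units with its SE, for phase 2 minus fed (left), phase 3 minus fed (middle) and phase 3 minus phase 2 (right); filled points passed an adjusted p of 0.05, red for higher and blue for lower. In the left panel 6 points are red and 11 blue, in the middle 20 and 5, and at the right 20 red points stand against 1 blue point, Eif2d.

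The cap-binding complex and its helpers were represented by 9 genes. The helicase gene Eif4a2 and the helicase cofactor genes Eif4b and Eif4h were higher in phase 3 than in fed rats, and the cap-binding gene Eif4e2 and the scaffold gene Eif4g3 were lower. In phase 2 against fed rats, 2 of the 9 were higher and 3 lower, and 5 of the 9 were higher in phase 3 than in phase 2. The shares of all genes, higher and lower, were 9.66% and 15.5% in phase 2 against fed rats. They were 21.1% and 24.3% in phase 3 against fed rats, and 12.8% and 15.1% in phase 3 against phase 2.

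Eif4b encodes a cofactor that stimulates the helicase activity of eIF4A and is a target of the S6 kinases. Its levels were 10.35, 10.45, 10.36 and 10.30 in fed rats, 11.13, 11.17, 11.15 and 11.14 in phase 2 rats and 11.40, 11.41, 11.55 and 11.60 in phase 3 rats. The 3 groups did not overlap, and all 4 phase 3 rats lay above all phase 2 rats, which lay above all fed rats. The change was 0.78 ± 0.0722 (SE, adjusted p = 4.07e-06) in phase 2 against fed rats and 1.12 in phase 3 against fed rats (adjusted p = 2.15e-08), and phase 3 exceeded phase 2 by 0.34 (adjusted p = 0.00271). The SE of a gene is the same in all 3 comparisons, because the groups are of equal size and share the same fit. Eif4h, a smaller cofactor of eIF4A related to eIF4B, had levels of 10.30, 10.26, 10.39 and 10.36 in fed rats, 10.28, 10.33, 10.49 and 10.36 in phase 2 rats and 11.02, 11.31, 11.12 and 11.19 in phase 3 rats. Fed and phase 2 rats overlapped and every phase 3 rat lay above both groups. The gene changed by 0.83 ± 0.0808 (SE, adjusted p = 1.28e-06) in phase 3 against fed rats and by 0.79 against phase 2 rats (adjusted p = 7.27e-06), while phase 2 differed from fed by 0.036 (adjusted p = 0.808).

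The helicase eIF4A has closely related forms encoded by Eif4a1 and Eif4a2. Eif4a2 levels were 11.40, 11.29, 11.54 and 11.56 in fed rats, 11.79, 11.99, 11.95 and 12.01 in phase 2 rats and 12.23, 12.25, 12.17 and 12.20 in phase 3 rats. The groups did not overlap and stood in the order fed, phase 2, phase 3. Phase 2 exceeded fed by 0.48 ± 0.0816 (SE, adjusted p = 0.000603), phase 3 exceeded fed by 0.76 (adjusted p = 3.1e-06), and phase 3 exceeded phase 2 by 0.28 (adjusted p = 0.0194). Without phase 2 rat 1 this last adjusted p was 0.065, and over all alternatives it ran from 0.00326 to 0.065. Eif4a1 levels were 11.29, 11.18, 11.30 and 11.30 in fed rats, 10.79, 10.89, 10.99 and 11.02 in phase 2 rats and 11.16, 11.12, 11.44 and 11.34 in phase 3 rats. Phase 2 rats lay below all rats of the other groups, and phase 3 overlapped fed. Eif4a1 was lower in phase 2 than in fed rats, at -0.35 ± 0.0881 (SE, adjusted p = 0.00997), and higher in phase 3 than in phase 2 rats by 0.34 (adjusted p = 0.00947), while the interval of the difference between phase 3 and fed rats was -0.19 to 0.19.

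Of the cap-binding proteins, Eif4e encodes the subunit of eIF4F itself. Its levels were 10.14, 10.03, 10.05 and 10.18 in fed rats, 9.87, 9.92, 9.96 and 9.87 in phase 2 rats and 10.04, 10.29, 10.03 and 10.21 in phase 3 rats. All phase 2 rats lay below all fed rats and below all phase 3 rats, with differences of -0.20 for phase 2 against fed (adjusted p = 0.0853) and 0.24 ± 0.0785 (SE, adjusted p = 0.0362) for phase 3 against phase 2. The call of phase 3 against phase 2 was lost without phase 2 rat 1, 2 or 4 and without phase 3 rat 2 or 4. The adjusted p was then 0.0843, 0.0619, 0.0824, 0.101 and 0.0953, and over all alternatives it ran from 0.00486 to 0.101. With centred arrays Eif4e was also called higher in phase 3 than in fed rats, at 0.20 with an adjusted p of 0.0396, against 0.04 and 0.701 as deposited. Eif4e2 encodes 4EHP, which binds the cap without binding eIF4G and represses translation. Its levels were 9.41, 9.32, 9.33 and 9.33 in fed rats, 8.92, 8.91, 8.96 and 8.85 in phase 2 rats and 8.65, 8.85, 8.93 and 8.95 in phase 3 rats. Every rat of both fasted groups lay below every fed rat, while phase 2 and phase 3 overlapped. It fell by 0.43 ± 0.0783 (SE, adjusted p = 0.000998) in phase 2 and by 0.50 in phase 3 (adjusted p = 0.00011) against fed rats. Eif4e3, a further member of the eIF4E family, had levels of 7.25, 7.42, 7.44 and 7.51 in fed rats, 7.08, 6.80, 6.92 and 6.71 in phase 2 rats and 6.88, 7.32, 7.15 and 7.54 in phase 3 rats. It was lower in phase 2 than in fed rats, by a change of -0.53 ± 0.127 (SE, adjusted p = 0.00716), with no overlap. Phase 3 rats overlapped both other groups, at -0.18 from fed (adjusted p = 0.265) and 0.35 from phase 2 (adjusted p = 0.0569). Without phase 2 rat 1 or phase 3 rat 1 the difference from phase 2 passed, with adjusted p = 0.0401 and 0.00815, as it did with quantile normalization (0.0237), cyclic loess (0.0425) and centred arrays (0.0143), and the range over all alternatives was 0.00815 to 0.176.

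Scaffold genes were represented by Eif4g3 and by Eif4g2, whose product lacks the part of eIF4G that binds eIF4E. Eif4g3 levels were 9.44, 9.56, 9.37 and 9.46 in fed rats, 9.39, 9.48, 8.95 and 9.14 in phase 2 rats and 9.35, 8.92, 8.54 and 8.80 in phase 3 rats. All phase 3 rats lay below all fed rats, and phase 2 overlapped both. Eif4g3 changed by -0.56 ± 0.151 (SE, adjusted p = 0.00752) in phase 3 against fed rats and by -0.34 in phase 3 against phase 2 rats (adjusted p = 0.114). Without phase 3 rat 1 the difference from phase 2 became -0.49 with an adjusted p of 0.012, in a range over all alternatives of 0.012 to 0.297. Eif4g2 did not pass in any comparison, with changes of -0.042 in phase 2 and -0.12 in phase 3 against fed rats, and its phase 3 rat 1 stood at 11.83 where the others were at 11.50.

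The promoters of Eif4h and Eif4e are shown as those of cap-binding complex genes that were higher in phase 3 than in phase 2 rats and whose windows hold the E-box CACGTG, the palindromic site read by MYC and related factors. The stretches are the 250 bases before the annotated start in RefSeq on assembly GRCr8, printed along the gene's strand, with each E-box in capitals. The E-box occurs in 5.59% of the 33469 promoter windows of the RefSeq table on either strand. Among the 39 members with an entry it was found in Eif1b, Eif3b, Eif4e, Eif4h and Eif5a, and of these genes Eif1b was likewise higher in phase 3 than in phase 2, Eif3b passed in no comparison and Eif5a was lower in phase 3 than in fed rats. A match of letters is a description and not a bound site. The window of Eif4h is chr12:27719442-27719691 on the + strand, with the E-box starting 168 bases before the gene start, and that of Eif4e is chr2:229740503-229740752 on the + strand, with E-boxes starting 237 and 80 bases before it.
Eif4h: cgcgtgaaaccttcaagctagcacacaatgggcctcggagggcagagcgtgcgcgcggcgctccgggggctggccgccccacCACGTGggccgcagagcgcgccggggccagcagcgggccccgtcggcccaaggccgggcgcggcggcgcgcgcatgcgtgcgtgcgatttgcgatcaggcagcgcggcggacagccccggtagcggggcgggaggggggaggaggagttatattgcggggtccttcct
Eif4e: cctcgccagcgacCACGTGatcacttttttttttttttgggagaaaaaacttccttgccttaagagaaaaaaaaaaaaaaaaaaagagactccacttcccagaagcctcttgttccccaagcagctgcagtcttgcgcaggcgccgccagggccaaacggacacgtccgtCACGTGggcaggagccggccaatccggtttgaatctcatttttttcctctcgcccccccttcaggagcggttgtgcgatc

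**Figure D2:**
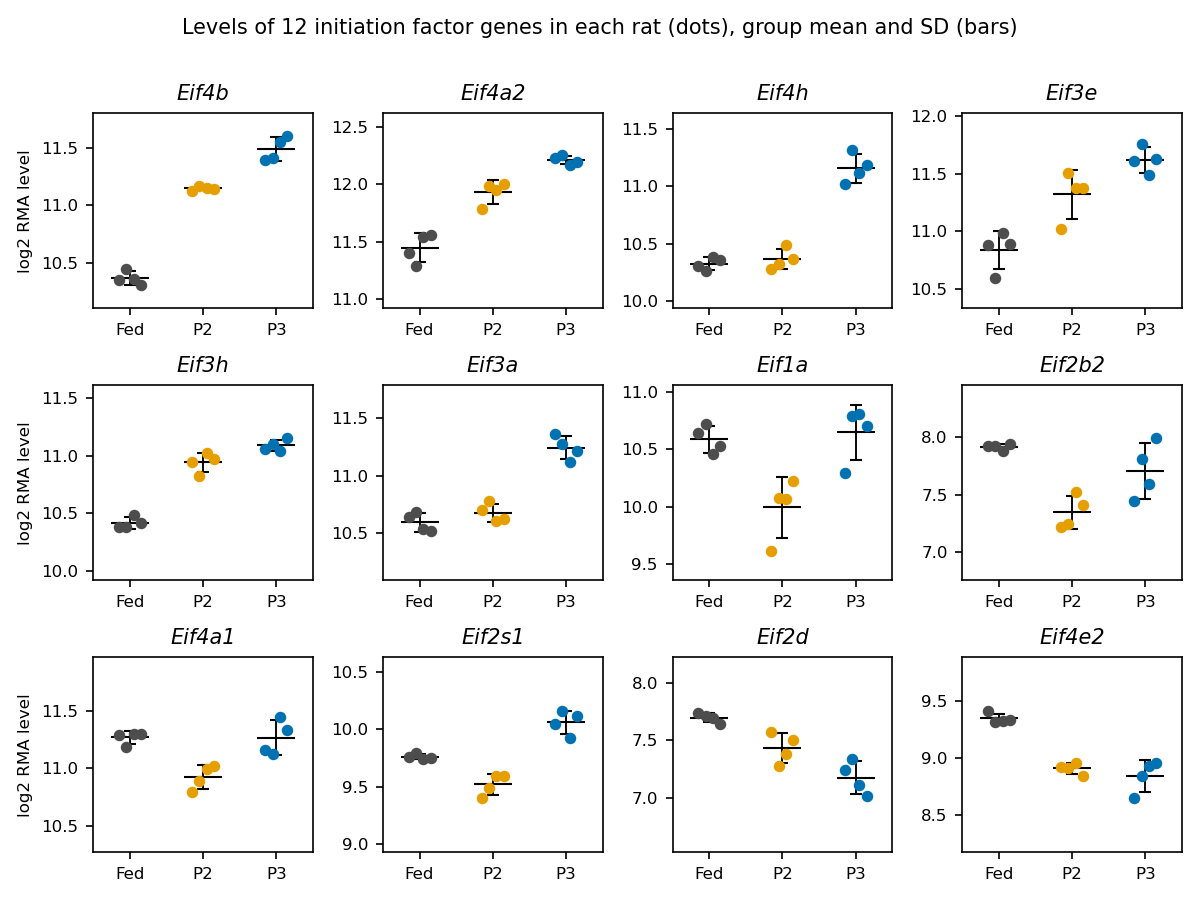
Log2 RMA levels of 12 initiation factor genes are plotted per rat (dots) with the group mean and SD (bars), for fed, phase 2 and phase 3 rats from left to right; the vertical axes differ in position and none starts at 0. Eif4b and Eif4a2 step upward through the groups, Eif4h and Eif3a stand apart in phase 3, Eif1a, Eif2b2, Eif4a1 and Eif2s1 are lowest in phase 2, and Eif2d and Eif4e2 are highest in fed rats.

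Related genes were also set against each other within each rat, as differences of log2 levels. Since probe sets differ in brightness, a difference of 0 has no meaning and only its change between groups can be read. The pairs were picked after the values were seen, so the differences are given without a test. Eif4a2 minus Eif4a1 averaged 1.01 ± 0.0628 in phase 2 and 0.948 ± 0.189 in phase 3 rats, against 0.181 ± 0.0807 in fed rats (SD, n = 4 each). Both fasted groups thus lay wholly above the fed rats, and overlapped each other, although Eif4a1 itself was called lower than fed in phase 2 and not in phase 3. Eif4e2 minus Eif4e averaged -0.995 ± 0.0356 in phase 2 and -1.30 ± 0.152 in phase 3 rats, against -0.758 ± 0.0649 in fed rats (SD, n = 4 each), and the 3 groups did not overlap. Eif4g3 minus Eif4g2 averaged -2.68 ± 0.209 in phase 3 rats, against -2.25 ± 0.0386 in fed rats (SD, n = 4 each), without overlap. For this pair phase 2 rats overlapped both other groups. Eif4e3 minus Eif4e and Eif1a minus Eif1ax overlapped in every comparison. Eif4ebp2 minus Eif4ebp1 lay apart only between phase 2 and fed rats.

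**Figure D3:**
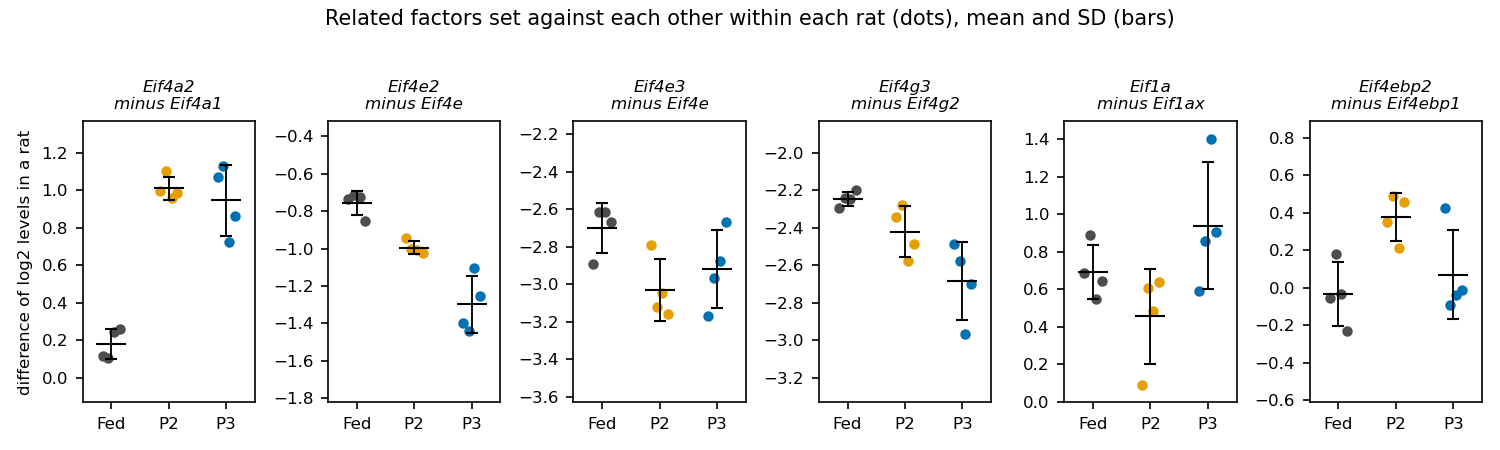
The difference between the log2 levels of 2 related initiation factor genes in the same rat (dots) is plotted for 6 pairs, with the mean and SD of 4 rats (bars), for fed, phase 2 and phase 3 rats from left to right; the position of 0 has no meaning and the vertical axes differ. Eif4a2 minus Eif4a1 has means of 0.181 (fed), 1.01 (phase 2) and 0.948 (phase 3), and Eif4e2 minus Eif4e has means of -0.758, -0.995 and -1.30 in the same order.

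All 3 measured genes for eIF4E-binding proteins were higher in phase 3 than in fed rats, and 1 of them, Eif4ebp2, was also higher in phase 2. Of all genes, 21.1% and 9.66% were higher in these comparisons. Eif4ebp2 levels were 9.19, 9.43, 9.34 and 9.22 in fed rats, 9.64, 9.62, 9.51 and 9.73 in phase 2 rats and 9.81, 9.48, 9.61 and 9.59 in phase 3 rats. Every rat of both fasted groups lay above every fed rat. The change was 0.33 ± 0.0887 (SE, adjusted p = 0.0139) in phase 2 and 0.33 in phase 3 (adjusted p = 0.00754), and the interval of the difference between phase 3 and phase 2 was -0.19 to 0.19. Eif4ebp1 encodes the most studied mTORC1 target of the family. Its levels were 9.25, 9.24, 9.37 and 9.45 in fed rats, 9.28, 9.13, 9.30 and 9.27 in phase 2 rats and 9.39, 9.57, 9.66 and 9.60 in phase 3 rats. Phase 3 rats lay above all phase 2 rats and overlapped the fed rats. Phase 3 exceeded phase 2 by 0.31 ± 0.0833 (SE, adjusted p = 0.0129) and fed by 0.22 (adjusted p = 0.0406). The call against fed rats was lost without fed rat 1, 2 or 3, phase 2 rat 4, or phase 3 rat 2, 3 or 4. The adjusted p was then 0.11, 0.102, 0.0592, 0.0514, 0.0702, 0.0895 and 0.0905, in a range over all alternatives of 0.00157 to 0.11. Eif4enif1 encodes the transporter that carries eIF4E into the nucleus and to mRNA granules, and it changed by 0.31 ± 0.0852 (SE, adjusted p = 0.00762) in phase 3 against fed rats. Without phase 2 rat 2 or phase 3 rat 2 its difference of 0.22 between phase 3 and phase 2 also passed, at adjusted p values of 0.0291 and 0.0406, as it did with quantile normalization (0.0298) and centred arrays (0.015), against 0.0707 with all rats and 0.015 to 0.189 over all alternatives.

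The subunits of eIF2 and other carriers of initiator tRNA were represented by 5 genes. Of these 1 was higher and 3 were lower in phase 2 than in fed rats, which became 2 higher and 1 lower with quantile normalization and with centred arrays, since Eif2d and Eif2s1 were no longer called and Eif2s3 was called higher. The other comparisons had more genes higher than lower: 3 and 1 in phase 3 against fed rats, and 3 and 1 in phase 3 against phase 2. For comparison, 9.66% of the 14506 genes tested rose and 15.5% fell from fed to phase 2 rats. These shares became 11.4% and 14.2% with quantile normalization, and 14% and 12.4% with centred arrays. Without rescaling, 21.1% rose and 24.3% fell from fed to phase 3 rats, and 12.8% and 15.1% did so from phase 2 to phase 3. Eif2s1 encodes eIF2α, the subunit whose phosphorylation stops eIF2 recycling. Its levels were 9.76, 9.79, 9.74 and 9.75 in fed rats, 9.40, 9.49, 9.59 and 9.59 in phase 2 rats and 10.04, 10.15, 9.92 and 10.12 in phase 3 rats. The groups did not overlap, with phase 2 rats lowest and phase 3 rats highest. Phase 3 exceeded phase 2 by 0.54 ± 0.0762 (SE, adjusted p = 0.000119) and fed by 0.30 (adjusted p = 0.00534), and phase 2 was below fed, at -0.24 (adjusted p = 0.0312). The phase 2 call was lost with quantile normalization (adjusted p = 0.0828) and with centred arrays (adjusted p = 0.0956). It was also lost without fed rat 1, 2, 3 or 4, at 0.0664, 0.0698, 0.0606 and 0.0633, and without phase 2 rat 1 or 2, at 0.0935 and 0.0735, in a range over all alternatives of 0.0161 to 0.0956.

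Eif2s2 encodes eIF2β, through which eIF2 meets eIF5 and eIF2B. Its levels were 10.82, 10.49, 10.68 and 10.68 in fed rats, 9.86, 10.30, 10.39 and 10.42 in phase 2 rats and 10.51, 10.70, 10.69 and 10.58 in phase 3 rats. Phase 2 rats lay below all others, and phase 3 and fed rats overlapped. Eif2s2 changed by -0.42 ± 0.118 (SE, adjusted p = 0.0167) in phase 2 against fed rats and by 0.38 in phase 3 against phase 2 rats (adjusted p = 0.0269). Without fed rat 1 the phase 2 adjusted p was 0.0551, in a range over all alternatives of 0.0111 to 0.0551. Without phase 2 rat 1 or phase 3 rat 2 or 3 that of phase 3 against phase 2 was 0.0688, 0.0593 or 0.0558, in a range of 0.00837 to 0.0688. Eif2s3, for the GTP-binding γ subunit, was higher in phase 3 than in fed rats by 0.48 ± 0.0728 (SE, adjusted p = 8.82e-05) and than in phase 2 rats by 0.28 (adjusted p = 0.00936). Phase 2 rats also lay above all fed rats for Eif2s3, by 0.19 at an adjusted p of 0.0703. This p became 0.0493 without phase 2 rat 1, 0.0194 with quantile normalization and 0.0183 with centred arrays, and 0.0183 to 0.156 over all alternatives. In phase 2 against fed rats the α and β subunit genes were thus called lower while the γ subunit gene was not.

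The promoter of Eif2s2 is shown because, of the 39 members with an entry, it alone had TGATGNAA in the 250 bases before the start, the core of the amino acid response element that ATF4 reads on stress-induced genes. The motif occurs on either strand in 3.4% of the 33469 windows. It starts 36 bases before the gene start and is in capitals in the RefSeq stretch chr3:163855571-163855820 of assembly GRCr8, printed along the gene's - strand. The FOXO motif GTAAACA, present in 3.21% of all windows, occurred in 0 of the 39 members, which says only that these letters are not in these windows.
Eif2s2: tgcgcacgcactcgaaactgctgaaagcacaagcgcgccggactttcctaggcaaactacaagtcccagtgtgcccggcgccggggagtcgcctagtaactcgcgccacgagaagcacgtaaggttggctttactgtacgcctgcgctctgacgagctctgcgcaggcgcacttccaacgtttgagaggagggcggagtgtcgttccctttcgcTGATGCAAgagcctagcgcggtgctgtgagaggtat

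The remaining carriers moved in opposite directions. Eif2a encodes a protein that can bring initiator tRNA to the ribosome independently of eIF2. Its levels were 8.47, 8.46, 8.39 and 8.42 in fed rats, 8.83, 8.93, 8.76 and 8.74 in phase 2 rats and 9.16, 9.14, 8.82 and 9.00 in phase 3 rats. Both fasted groups lay above all fed rats. Phase 2 exceeded fed by 0.38 ± 0.0856 (SE, adjusted p = 0.00431) and phase 3 exceeded fed by 0.60 (adjusted p = 4.84e-05). The difference between phase 3 and phase 2, 0.21 at an adjusted p of 0.0818, passed without phase 3 rat 3 at 0.0128, and with quantile normalization, cyclic loess and centred arrays at 0.0456, 0.0481 and 0.0161, in a range of 0.0128 to 0.185. Eif2d encodes a factor that delivers tRNA to the ribosome and takes part in recycling. Its levels were 7.74, 7.71, 7.70 and 7.64 in fed rats, 7.57, 7.28, 7.38 and 7.50 in phase 2 rats and 7.24, 7.33, 7.11 and 7.01 in phase 3 rats. All fasted rats lay below all fed rats, and phase 3 overlapped phase 2. It fell by 0.52 ± 0.0885 (SE, adjusted p = 0.000218) in phase 3 against fed rats, a call kept under every alternative. The steps of -0.27 in phase 2 against fed rats (adjusted p = 0.0409) and -0.26 in phase 3 against phase 2 rats (adjusted p = 0.0433) were not robust. The phase 2 step was lost with quantile normalization (0.0557), with centred arrays (0.115), without fed rat 1, 2, 3 or 4 (0.0972, 0.0799, 0.0825 and 0.0625) and without phase 2 rat 2, 3 or 4 (0.128, 0.0954 and 0.0514), as adjusted p values in a range of 0.0241 to 0.128. The phase 3 step was lost with quantile normalization (0.0934), with centred arrays (0.161), without fed rat 1, 2, 3 or 4 (0.0571, 0.0547, 0.0584 and 0.0557), without phase 2 rat 1, 3 or 4 (0.128, 0.061 and 0.106) and without phase 3 rat 3 or 4 (0.0796 and 0.133), in a range of 0.0214 to 0.161.

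The exchange factor eIF2B, which reloads eIF2 with GTP, has 5 subunits, and all 5 genes were measured. In phase 2 against fed rats 1 was called, lower, and 2 were called in phase 3 against fed rats and 2 in phase 3 against phase 2 rats, all higher. In the same order 25.2%, 45.4% and 27.9% of all genes were called. Eif2b2, for the β subunit, had levels of 7.92, 7.93, 7.88 and 7.94 in fed rats, 7.22, 7.24, 7.52 and 7.41 in phase 2 rats and 7.44, 7.81, 7.59 and 7.99 in phase 3 rats. Phase 2 rats lay below all fed rats, and phase 3 rats overlapped both groups. The change was -0.57 ± 0.111 (SE, adjusted p = 0.00176) in phase 2 against fed rats and 0.36 in phase 3 against phase 2 rats (adjusted p = 0.0254). Without phase 2 rat 1 or 2 or phase 3 rat 2 or 4 the adjusted p of the phase 3 step was 0.0765, 0.07, 0.0613 and 0.0843, in a range over all alternatives of 0.00486 to 0.0843. Without phase 3 rat 4 Eif2b2 was also called lower in phase 3 than in fed rats, at -0.30 with an adjusted p of 0.0319, against -0.21 and 0.144 with all rats and 0.0319 to 0.666 over all alternatives.

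Eif2b1, for the α subunit, was higher in phase 3 than in phase 2 rats by 0.47 ± 0.0793 (SE, adjusted p = 0.000493) and than in fed rats by 0.28 (adjusted p = 0.0106). Eif2b4, for the δ subunit, was higher in phase 3 than in fed rats by 0.38 ± 0.119 (SE, adjusted p = 0.0183), a call lost without fed rat 2 (adjusted p = 0.0623) or phase 3 rat 4 (0.0557), in a range of 0.00137 to 0.0623. Its difference of 0.32 between phase 3 and phase 2 rats had an adjusted p of 0.0595. This p became 0.0436, 0.0487 and 0.0261 without fed rat 2, phase 2 rat 3 and phase 2 rat 4, 0.0286 with quantile normalization and 0.0135 with centred arrays, in a range of 0.0135 to 0.175. Eif2b5 encodes the catalytic ε subunit. Its levels were 8.40, 8.48, 8.45 and 8.51 in fed rats, 8.44, 8.29, 8.47 and 8.49 in phase 2 rats and 8.52, 8.46, 8.41 and 8.45 in phase 3 rats. The 3 groups overlapped throughout, and the intervals of the differences were -0.19 to 0.11 for phase 2 against fed and -0.15 to 0.15 for phase 3 against fed. Eif2b3, for the γ subunit, changed by 0.064 in phase 2 (adjusted p = 0.685) and 0.10 in phase 3 (adjusted p = 0.385), and with centred arrays it was called higher in phase 3 than in fed rats (adjusted p = 0.0249).

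The eIF2α kinases, which shut off recycling of eIF2 under different stresses, were represented by 4 genes. Of these 1 was lower in phase 2 than in fed rats, where 25.2% of all genes were called. In phase 3 limma called 0 of 4 against fed rats and 0 of 4 against phase 2 rats, with 1 and 0 at an unadjusted p below 0.05. Of all genes, 45.4% and 27.9% were called in these comparisons. Eif2ak3 encodes PERK, the kinase of the endoplasmic reticulum stress response. Its levels were 8.87, 8.95, 8.90 and 8.91 in fed rats, 8.68, 8.60, 8.49 and 8.57 in phase 2 rats and 8.55, 8.53, 8.82 and 8.86 in phase 3 rats. All fasted rats of both groups lay below all fed rats. It fell by 0.32 ± 0.0882 (SE, adjusted p = 0.0147) in phase 2, and its change of -0.22 in phase 3 against fed rats had an adjusted p of 0.0559. Leaving out phase 3 rat 3 or 4 brought that p to 0.0281 and 0.0246, and leaving out the dimmest 40% of genes brought it to 0.0378, in a range of 0.0246 to 0.538. Eif2ak4 encodes GCN2, the sensor of uncharged tRNA in amino acid shortage. Its levels were 7.58, 7.46, 7.52 and 7.42 in fed rats, 7.49, 7.60, 7.40 and 7.24 in phase 2 rats and 7.64, 7.58, 7.56 and 7.56 in phase 3 rats. The groups overlapped, and the differences of -0.064 in phase 2 (interval -0.24 to 0.11) and 0.089 in phase 3 (interval -0.088 to 0.27) against fed rats did not pass. With centred arrays Eif2ak4 was called higher in phase 3 than in fed rats, at 0.24 with an adjusted p of 0.0232, and than in phase 2 rats, at 0.24 with 0.0396, and Eif2ak1, for the heme-regulated kinase HRI, likewise, at 0.19 with 0.0319 and 0.20 with 0.0403.

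Eif2ak2 encodes PKR, the kinase activated by double-stranded RNA and induced by interferon, and its result turned on a single animal. Its levels were 8.97, 9.24, 9.26 and 8.91 in fed rats, 8.54, 8.76, 8.54 and 8.84 in phase 2 rats and 8.33, 9.77, 8.24 and 8.52 in phase 3 rats. Phase 3 rat 2 stood at 9.77, above every other rat of the study, while the other 3 phase 3 rats stood at 8.24 to 8.52, below every fed and every phase 2 rat. With all rats the change was -0.43 ± 0.255 (SE, adjusted p = 0.263) in phase 2 and -0.38 in phase 3 (adjusted p = 0.243) against fed rats. Without phase 3 rat 2 it was -0.73 in phase 3 (adjusted p = 0.000183, in a range over all alternatives of 0.000183 to 0.536) and -0.43 in phase 2 (adjusted p = 0.0105, in a range of 0.0104 to 0.422). All 4 phase 2 rats lay below all 4 fed rats.

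Of 10 measured subunit genes of eIF3, the large scaffold that joins the small ribosomal subunit to the mRNA, 2 were higher and 1 was lower in phase 2 than in fed rats, 5 were higher and 1 was lower in phase 3 than in fed rats, and 4 were higher in phase 3 than in phase 2. In the same order 25.2%, 45.4% and 27.9% of all genes were called in either direction. The median change of the 10 was -0.064 in phase 2 and 0.19 in phase 3 against fed rats. Eif3e had levels of 10.88, 10.59, 10.98 and 10.89 in fed rats, 11.02, 11.51, 11.38 and 11.37 in phase 2 rats and 11.61, 11.76, 11.48 and 11.62 in phase 3 rats. Both fasted groups lay above all fed rats. Phase 2 exceeded fed by 0.48 ± 0.114 (SE, adjusted p = 0.0062) and phase 3 exceeded fed by 0.78 (adjusted p = 5.46e-05). The difference of 0.30 between phase 3 and phase 2 (adjusted p = 0.0648) passed without fed rat 2, phase 2 rat 2 or phase 3 rat 3, at 0.0487, 0.0402 and 0.0474, with cyclic loess at 0.0469 and with centred arrays at 0.0178, in a range of 0.0178 to 0.2.

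Eif3h encodes another subunit of the complex. Its levels were 10.38, 10.38, 10.49 and 10.42 in fed rats, 10.95, 10.82, 11.02 and 10.97 in phase 2 rats and 11.06, 11.10, 11.04 and 11.15 in phase 3 rats. The groups did not overlap. It was higher by 0.52 ± 0.0707 (SE, adjusted p = 0.000107) in phase 2 and by 0.67 in phase 3 (adjusted p = 2.58e-06) than in fed rats, with 0.15 between phase 3 and phase 2 (adjusted p = 0.139). The dimmer probe set of Eif3h, fitted with all probe sets of 1 gene, disagreed in part. It changed by 0.32 in phase 2 against fed rats (adjusted p = 0.0621), by 0.81 in phase 3 against fed rats and by 0.49 in phase 3 against phase 2 rats (adjusted p = 0.00666). Taken as the mean of both probe sets, Eif3h was higher in phase 3 than in phase 2 rats by 0.32 (adjusted p = 0.0103), and with centred arrays the brighter probe set also passed (adjusted p = 0.0133).

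Eif3a encodes the largest subunit and part of the core. Its levels were 10.64, 10.69, 10.54 and 10.52 in fed rats, 10.70, 10.78, 10.61 and 10.62 in phase 2 rats and 11.36, 11.28, 11.12 and 11.22 in phase 3 rats. Phase 2 rats overlapped fed rats, and every phase 3 rat lay above both. The change in phase 3 was 0.65 ± 0.0787 (SE, adjusted p = 1.01e-05) against fed and 0.57 against phase 2 rats (adjusted p = 0.000103). Eif3j, for a loosely bound subunit that helps place the complex on the ribosome, had levels of 9.18, 9.06, 9.01 and 9.21 in fed rats, 9.07, 9.20, 9.20 and 9.16 in phase 2 rats and 9.81, 9.79, 9.40 and 9.67 in phase 3 rats and changes of 0.55 ± 0.0941 (SE, adjusted p = 0.000238) against fed and 0.51 against phase 2 rats (adjusted p = 0.00102). Eif3d, whose product can bind the cap of selected mRNAs, was higher in phase 3 than in fed rats by 0.34 ± 0.0809 (SE, adjusted p = 0.00339) and than in phase 2 rats by 0.41 (adjusted p = 0.00156).

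Eif3c, for another core subunit, was lower in phase 2 than in fed rats, at -0.35 ± 0.069 (SE, adjusted p = 0.00205). It was higher in phase 3 than in phase 2 rats by 0.22 (adjusted p = 0.0254), a call lost without phase 2 rat 1 or 4 or phase 3 rat 4 (adjusted p = 0.0504, 0.0595 and 0.0853) and with quantile normalization (0.0573), in a range of 0.00295 to 0.0853. Eif3l encodes a subunit at the periphery of the complex that budding yeast lacks. Its levels were 9.95, 10.05, 10.07 and 10.08 in fed rats, 9.93, 9.81, 10.02 and 10.07 in phase 2 rats and 9.75, 9.87, 9.70 and 9.84 in phase 3 rats. All phase 3 rats lay below all fed rats and overlapped phase 2 rats. The change in phase 3 against fed rats was -0.25 ± 0.0783 (SE, adjusted p = 0.0179), which became -0.094 with centred arrays (adjusted p = 0.284), in a range of 0.0104 to 0.284. The core gene Eif3b and the genes Eif3i and Eif3k passed in no comparison. With centred arrays Eif3b was called higher in phase 3 than in phase 2 rats (adjusted p = 0.0325, in a range of 0.0325 to 0.349). Without phase 3 rat 2 Eif3i was called lower in phase 3 than in fed rats, at -0.27 (adjusted p = 0.0407, in a range of 0.0407 to 0.797).

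The factors of start codon selection, subunit joining and release were represented by 7 genes: 2 were lower in phase 2 than in fed rats, 4 were higher in phase 3 than in fed rats, and 5 were higher in phase 3 than in phase 2. Of all genes, 15.5% were lower, 21.1% higher and 12.8% higher in the same 3 comparisons. Eif1a and Eif1ax encode forms of eIF1A, which keeps the scanning ribosome open. Eif1a levels were 10.64, 10.72, 10.46 and 10.52 in fed rats, 9.61, 10.07, 10.06 and 10.22 in phase 2 rats and 10.29, 10.79, 10.80 and 10.70 in phase 3 rats. All phase 2 rats lay below all fed and all phase 3 rats. Eif1a changed by -0.59 ± 0.138 (SE, adjusted p = 0.00579) in phase 2 against fed rats and by 0.65 in phase 3 against phase 2 rats (adjusted p = 0.00268), with 0.061 between phase 3 and fed (adjusted p = 0.742). Eif1ax fell in phase 2 by 0.36 ± 0.0987 (SE, adjusted p = 0.0164), and its phase 3 difference from fed, -0.19 at an adjusted p of 0.14, became -0.26 at 0.0382 without phase 3 rat 2, in a range of 0.0382 to 0.769. Without phase 3 rat 3 Eif1ax was called higher in phase 3 than in phase 2 rats, at 0.27 (adjusted p = 0.0174), and with centred arrays at 0.26 (0.0457), against 0.17 and 0.234 otherwise and 0.0174 to 0.502 over all alternatives.

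Eif5 encodes the protein that makes eIF2 hydrolyse its GTP at the start codon. Its levels were 11.51, 11.49, 11.37 and 11.38 in fed rats, 11.46, 11.56, 11.46 and 11.52 in phase 2 rats and 11.78, 11.81, 11.69 and 11.78 in phase 3 rats. Every phase 3 rat lay above every other rat, while fed and phase 2 rats overlapped. Phase 3 exceeded fed by 0.33 ± 0.069 (SE, adjusted p = 0.00118) and phase 2 by 0.27 (adjusted p = 0.00917). Eif5b, for the GTPase that joins the ribosomal subunits, changed in the same comparisons, by 0.53 ± 0.0788 (SE, adjusted p = 6.21e-05) in phase 3 against fed and by 0.39 against phase 2 rats (adjusted p = 0.00214). Its phase 2 difference from fed rats of 0.15 (adjusted p = 0.199) passed with quantile normalization (0.0396) and with centred arrays (0.0495). Eif6 encodes a factor that holds the large subunit apart until joining and is known in mouse fat and liver as a regulator of lipid synthesis. Its levels were 8.49, 8.62, 8.51 and 8.54 in fed rats, 8.52, 8.33, 8.55 and 8.62 in phase 2 rats and 8.63, 8.71, 8.83 and 8.86 in phase 3 rats. Phase 3 rats lay just above all fed and phase 2 rats, by 0.22 ± 0.0837 (SE, adjusted p = 0.0461) over fed and 0.25 over phase 2 (adjusted p = 0.0366).

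Both calls of Eif6 were fragile. Against fed rats the adjusted p was 0.109, 0.0977 and 0.0844 without fed rat 1, 3 or 4, 0.056 and 0.0566 without phase 2 rat 1 or 3, and 0.0529, 0.0919 and 0.123 without phase 3 rat 2, 3 or 4, in a range of 0.00172 to 0.123. Against phase 2 rats it was 0.0647, 0.112 and 0.0548 without phase 2 rat 1, 2 or 3, and 0.0714 and 0.106 without phase 3 rat 3 or 4, in a range of 0.00606 to 0.112. Eif1b, a close relative of the start codon factor eIF1, was higher in phase 3 than in phase 2 rats by 0.34 ± 0.11 (SE, adjusted p = 0.032). The call was lost without phase 2 rat 1, which stood low at 7.91, at 0.24 with an adjusted p of 0.101, and without phase 3 rat 3 or 4, at 0.0819 and 0.0785, in a range of 0.00953 to 0.101. Without phase 2 rat 1 or phase 3 rat 1 Eif1b was called higher in phase 3 than in fed rats, at adjusted p values of 0.036 and 0.0382, as it was with quantile normalization (0.045) and centred arrays (0.00678), against 0.0716 otherwise and 0.00678 to 0.185 over all alternatives. Of these settings, only the 1 without phase 2 rat 1 lost the call of phase 3 against phase 2. Eif1ad, named for its eIF1A-like domain, was higher in phase 3 than in fed rats by 0.31 ± 0.0968 (SE, adjusted p = 0.016), and with centred arrays also than in phase 2 rats (adjusted p = 0.0288).

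Eif5a, the hypusine-bearing factor that eases elongation and termination, was measured alone of its role. Its levels were 11.57, 11.61, 11.68 and 11.68 in fed rats, 11.44, 11.39, 11.55 and 11.58 in phase 2 rats and 11.39, 11.39, 11.54 and 11.38 in phase 3 rats. All phase 3 rats lay below all fed rats, and phase 2 overlapped both. The change was -0.21 ± 0.0746 (SE, adjusted p = 0.0336) in phase 3 against fed rats. The call was lost with quantile normalization (adjusted p = 0.0556) and with centred arrays, where the change was -0.054 (adjusted p = 0.544). It was also lost without fed rat 2, 3 or 4, at 0.0503, 0.0853 and 0.0842, and without phase 3 rat 1, 2 or 4, at 0.0661, 0.0679 and 0.0774, in a range of 0.014 to 0.544. Dohh, which completes the hypusine of eIF5A, was higher in phase 3 than in fed rats by 0.35 ± 0.0985 (SE, adjusted p = 0.0102), while Dhps, which begins it, was at 0.23 (adjusted p = 0.0721). Both were higher in phase 3 than in phase 2 rats, Dohh by 0.51 (adjusted p = 0.00149) and Dhps by 0.29 (adjusted p = 0.041).

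Read across the stages, 35 of 44 members passed in at least 1 comparison. The share of all genes that did so was not counted, nor were the shares for the patterns and group means below. In phase 3 against fed rats alone, 45.4% of all genes and 65.0% of the brighter 60% were called. The commonest pattern, in 10 genes, was a level in phase 3 above both other groups, with no call between phase 2 and fed rats. These were Eif2b1, Eif2s3, Eif3a, Eif3d, Eif3j, Eif4ebp1, Eif4h, Eif5, Eif5b and Eif6. Eif2s1, Eif4a2 and Eif4b were also called higher in phase 3 than in both other groups and are counted below, since they were called in phase 2. Another 6 genes were lower in phase 2 than in fed rats and higher in phase 3 than in phase 2 rats, namely Eif1a, Eif2b2, Eif2s1, Eif2s2, Eif3c and Eif4a1, and of these Eif2s1 also passed fed levels in phase 3. In 6 genes, Eif2a, Eif3e, Eif3h, Eif4a2, Eif4b and Eif4ebp2, both fasted groups were higher than fed rats, and in 2, Eif2d and Eif4e2, both were lower. The remaining 11 passed in 1 comparison each: Eif1ax, Eif2ak3 and Eif4e3 were lower in phase 2 than in fed rats, Eif3l, Eif4g3 and Eif5a were lower in phase 3 than in fed rats, Eif1ad, Eif2b4 and Eif4enif1 were higher in phase 3 than in fed rats, and Eif1b and Eif4e were higher in phase 3 than in phase 2 rats. A single call does not set the fasted groups apart, since the first 9 of these genes did not pass between phase 3 and phase 2. The group mean was lowest in phase 2 for 21 members and highest in phase 3 for 26. The 9 members called in no comparison were Eif2ak1, Eif2ak2, Eif2ak4, Eif2b3, Eif2b5, Eif3b, Eif3i, Eif3k and Eif4g2. Annotated pseudogenes exist in GRCr8 for 24 members, among them Eif4e with 10, Eif5 with 9, Eif4a1 with 8 and Eif4b with 4, so that probes of these genes may also read near-identical copies.

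Other genes of translation and its control were measured beside the initiation factors, from a list of 46 measured genes. In phase 2 against fed rats 8 were higher and 8 lower, in phase 3 against fed rats 21 were higher and 9 lower, and in phase 3 against phase 2 rats 18 were higher and 4 lower, with median changes of -0.0056, 0.20 and 0.12. Of all genes, 9.66% were higher and 15.5% lower, 21.1% and 24.3%, and 12.8% and 15.1% in the same order. In either direction 34.8%, 65.2% and 47.8% of the 46 were called, against 25.2%, 45.4% and 27.9% of all genes. Of the brighter 60% of genes, refitted alone, 40.5%, 65.0% and 46.3% were called. The 46 genes were not counted in that refit. The median change over all genes was 0.0072, 0.053 and 0.033. Of the genes that act on mTORC1, several whose products restrain it were called, in both directions. Ddit4, which encodes the mTORC1 inhibitor REDD1, was higher in phase 3 than in fed rats by 2.81 ± 0.296 (SE, adjusted p = 2.62e-06), and Sesn1, for an amino acid sensor upstream of mTORC1, by 1.67 ± 0.107 (SE, adjusted p = 2.11e-08) and already by 0.58 in phase 2 (adjusted p = 0.00119). The partners of the tuberous sclerosis complex, which restrains mTORC1, moved in opposite directions in phase 3 against fed rats, with Tsc1 at 0.70 (adjusted p = 4.18e-06) and Tsc2 at -0.79 (adjusted p = 4.7e-06). Rptor, for the raptor subunit of mTORC1, fell by 0.46 ± 0.0766 (SE, adjusted p = 0.000182), and Mtor itself was at -0.15 (adjusted p = 0.147). In all, 5 of the 15 genes of mTORC1 and eIF4E control were higher and 5 lower in phase 3 than in fed rats. Of all genes, 21.1% were higher and 24.3% lower in that comparison.

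Atf4, Ddit3 and Ppp1r15a, known to respond to eIF2α phosphorylation, were all higher in phase 3 than in fed rats. Atf4, the transcription factor translated when eIF2α is phosphorylated, changed by 1.09 ± 0.0979 (SE, adjusted p = 5.68e-07) in phase 3 and was at -0.027 in phase 2 (adjusted p = 0.891) against fed rats, and its target Ddit3, for CHOP, by 0.93 ± 0.163 (SE, adjusted p = 0.000289) in phase 3. Ppp1r15a encodes GADD34, which brings a phosphatase to eIF2α, and it was higher by 0.53 in phase 2 (adjusted p = 0.008) and by 2.05 ± 0.131 (SE, adjusted p = 2.08e-08) in phase 3. Ppp1r15b, for the constitutive counterpart, was higher by 0.55 (adjusted p = 0.000796) and 0.43 (adjusted p = 0.00194) in the same comparisons. Impact, whose product inhibits GCN2, was higher by 0.77 in phase 2 (adjusted p = 2.76e-05) and 1.00 ± 0.0886 (SE, adjusted p = 4.78e-07) in phase 3, and Dnajc3, for a chaperone known as an inhibitor of PKR and PERK, fell by 0.70 in phase 2 (adjusted p = 8.4e-05) and by 0.69 ± 0.0914 (SE, adjusted p = 2.32e-05) in phase 3. The kinase genes themselves, described above, were not called in phase 3. Of 17 cofactor and eIF2 phosphatase genes, 11 were higher and 2 lower in phase 3 than in fed rats. Over all genes, 21.1% were higher and 24.3% lower.

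Of 14 elongation and termination genes, 5 were higher and 2 lower in phase 3 than in fed rats, and 3 were higher and 2 lower in phase 2 than in fed rats. Among the genes tested, 21.1% rose and 24.3% fell in the first comparison, and 9.66% and 15.5% in the second. In either direction 50% and 35.7% of the 14 were called, against 45.4% and 25.2% of the genes tested. Of the brighter 60% of genes, refitted alone, 65.0% and 40.5% were called. Eef2, for the translocase of elongation, was higher than fed by 0.24 ± 0.0701 (SE, adjusted p = 0.0198) in phase 2 and was at -0.014 in phase 3 (adjusted p = 0.891). Etf1, for the release factor that reads stop codons, was higher in phase 3 by 0.45 ± 0.0744 (SE, adjusted p = 0.000192), while Gspt1, for its GTPase partner, fell by 0.35 in phase 2 (adjusted p = 0.00243) and by 0.23 ± 0.0717 (SE, adjusted p = 0.0181) in phase 3. Eef1a1 passed in neither comparison, at 0.15 (adjusted p = 0.104) and 0.16 (adjusted p = 0.0509).

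**Figure D4:**
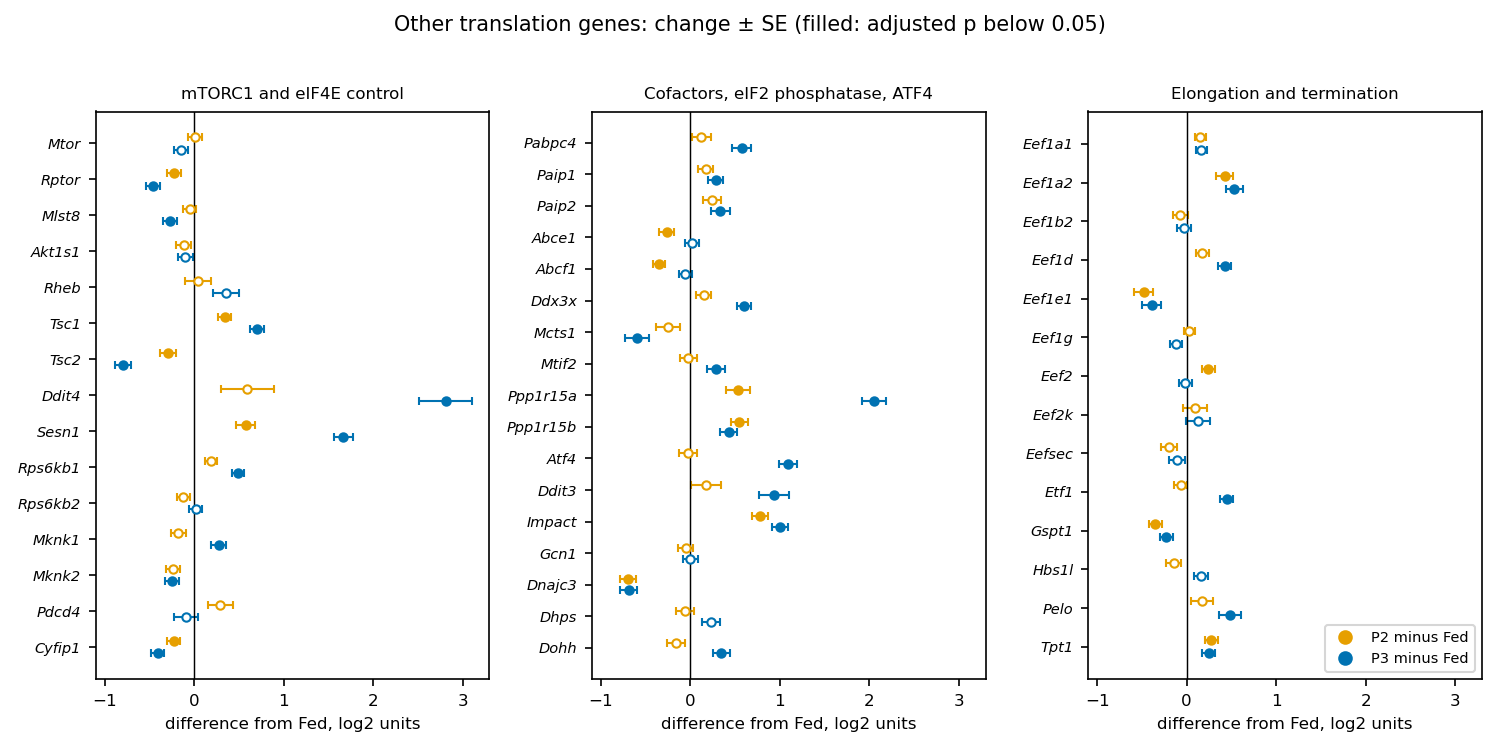
The change against fed rats of 46 other translation genes (rows) is plotted in log2 units with its SE for phase 2 (orange) and phase 3 (blue), in 3 panels for mTORC1 and eIF4E control, for cofactors with the eIF2 phosphatase and ATF4, and for elongation and termination; filled points passed an adjusted p of 0.05. Ddit4 at 2.81, Ppp1r15a at 2.05 and Sesn1 at 1.67 in phase 3 lie farthest to the right, and Tsc2 at -0.79 lies farthest to the left.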

How the data were processed

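Each deposited value is a log2 level of a probe set on 1 array. Per the submitters' processing notes the authors used RMA, and the notes also name GCOS and Affymetrix Expression Console 1.1. RMA corrects the background, quantile-normalises arrays and summarises probes. RMA settings and array batches are not given in the sources used here. The platform annotation named 1 gene for 15310 of 29215 probe sets, several for 323 and none for 13582, and only the first kind was used. The number of arrays, 4 per group, limits the precision.

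The 3 group means were estimated jointly from the 12 arrays, without covariates, in limma 3.58.1 (lmFit, eBayes; R 4.3.3). Benjamini-Hochberg adjustment ran over 14506 genes, with calls at 0.05. A change is a difference between group means and carries the SE of that fit; intervals are at 95%. Alternatives were quantile, cyclic loess and median-centred rescaling of the arrays. Further ones were a filter on the dimmest 40% of genes, an intensity trend with a robust prior and the mean of a gene's probe sets. The last were every probe set fitted on its own, fits to the 2 groups compared, a replicate block and leaving out each rat. The code was tested on simulated data. Tables and plots were made with pandas 2.3.3 and matplotlib 3.10.9 under Python 3.11.15.

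Genes were named by rule: in each comparison the 5 called members with the largest rise and the 5 with the largest fall, up to 3 members of each role with the smallest adjusted p, and a standing set (Eif4ebp1, Eif4ebp2, Eif4e, Eif4a1, Eif2s1, Eif2ak3, Eif2ak4, Eif2b5, Eif5, Eif5a and Eif6). Eif2ak2 and any further gene given with values were named after their values were seen. The members, lists and roles were chosen with earlier results of these data known. Promoters were read from a RefSeq table of assembly GRCr8.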

Additional observations from a re-analysis of the deposited data

Results flagged for a closer look

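In each group of 4 rats, a rat was singled out when its gap to the nearest other rat exceeded Dixon's 95% critical share of the group's range. This met 7 of 132 groups of member levels, where chance gives about 1 in 20. Phase 2 rat 1 was low for Eif1b, at 7.91 with the other rats at 8.27 to 8.35, and for Eif2s3, at 10.66 with the others at 10.79 to 10.82. Fed rat 2 was low for Eif3k, at 9.23 with the others at 9.47 to 9.52, and for Eif4a1, at 11.18 with the others at 11.29 to 11.30. Fed rat 1 was high for Eif4e2, at 9.41 with the others at 9.32 to 9.33. Phase 3 rat 1 was high for Eif4g2, at 11.83 with the others all at 11.50, and phase 3 rat 3 was high for Eif5a, at 11.54 with the others at 11.38 to 11.39.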

How the results depend on the processing

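Of 2772 member changes recomputed under alternatives, 2614 stayed on the same side of the threshold, 94 lost a call and 64 gained one, and 47 of the 63 called changes kept their call under every alternative run. These counts include the mean of a gene's probe sets and every probe set on its own. For members with 1 probe set these settings repeat the main change, so agreement there was nearly fixed in advance. No called change turned its sign, while 54 uncalled ones, of 19 members, did. With arrays centred on their median, members lower in phase 3 than in fed rats numbered 3 in place of 5 and members higher in phase 3 than in phase 2 numbered 31 in place of 20, since centring adds the shift of the medians to every change. The 1 member lower in phase 3 than in phase 2, Eif2d, became 0 with quantile normalization, with centred arrays and with only those 2 groups in the fit. Leaving out 1 rat at a time gave 6 to 7 members higher and 8 to 12 lower in phase 2 against fed, 17 to 21 higher and 4 to 7 lower in phase 3 against fed, and 14 to 22 higher and 0 to 2 lower in phase 3 against phase 2. With only the 2 groups compared in the fit, calls of phase 3 against phase 2 were lost for Eif1b, Eif2b2, Eif2d, Eif2s2, Eif3c, Eif4e and Eif6, at adjusted p values of 0.0663, 0.065, 0.0978, 0.0514, 0.0684, 0.0782 and 0.0827, and calls of phase 3 against fed for Eif4ebp1 and Eif6, at 0.0689 and 0.0567. The causes of these losses were not tested. Rats that share a number deviated together at correlations of -0.155 to 0.188, not all above 0.1, so the numbers were not taken as pairs. With the number as a replicate block, 6 members were higher and 9 lower in phase 2 against fed, 19 and 5 in phase 3 against fed, and 20 and 1 in phase 3 against phase 2. The block lost Eif2d and Eif2s1 in phase 2 against fed (adjusted p = 0.0573 and 0.0506), Eif6 in phase 3 against fed (0.057), and Eif2d and Eif4e in phase 3 against phase 2 (0.0597 and 0.0594), and gained Eif2b4, higher, and Eif4g3, lower, in phase 3 against phase 2 (0.0403 and 0.0451). With 4 arrays per group and no measure of signal over background in the values used, small changes of dim members may go uncalled.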
